A study of Homo sapiens with 60 samples.

Results

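The genes described are 10 transcriptional targets of p53: CDKN1A, MDM2, GDF15, BBC3, TP53I3, SESN1, ZMAT3, FAS, RRM2B and BTG2. They were chosen by name, by matching the Ensembl identifiers of the count table to gene symbols, and all 10 were found among 60675 genes and passed the filter on low counts that kept 16644 genes for testing. RNA was sequenced from HepG2, a human hepatocellular carcinoma cell line, after 24 h with a water extract of a herbal medicine. Menthae Herba (mint herb) and Saposhnikoviae Radix (Saposhnikovia root) are single herbs, and Saengmaek-san, Guibi-tang, Soyo-san, Okbyeongpung-san and Soshiho-tang are multi-herb formulas. Doses were 20, 100 and 500 µg/mL in triplicate libraries, or a single library for Soshiho-tang, and the cells of the vehicle group (3 libraries) received DMSO alone. The labels of the vehicle libraries give 0.1% DMSO and the design text of the series gives 2%. The design text also states that extracts toxic below the highest dose were used at lower doses, whereas every label used here gives 20, 100 or 500 µg/mL. Its wortmannin control was not analysed here.

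p53 is a transcription factor that is kept low by MDM2, a ubiquitin ligase that p53 itself induces. When DNA damage or another stress frees p53, it binds paired decamers near its target genes and raises inhibitors of the cell cycle, death genes and genes of metabolism and repair. HepG2 is known for wild-type p53. GDF15, a secreted hormone of the TGF-beta superfamily that lowers food intake through its receptor GFRAL in the brainstem, is a p53 target and is also induced by ATF4 and CHOP in the integrated stress response, the arm that slows translation when amino acids run short or proteins misfold.

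RefSeq promoter windows (250 bases before to 50 after a start site, GRCh38.p14) were held for 9 of the 10 genes, 17 windows in all, and RRM2B was not searched. The p53 consensus was searched as 2 adjoining decamers, on either strand, with at most 3 mismatches in 20 bases, and matches may overlap. It was found in 5 of the 17 windows, belonging to 4 genes, against 5.20% of 35116 windows of all genes. The MDM2 windows that start at 68808767 and 68808774 overlap and hold the same 2 matches, so that promoter counts more than once. The following stretches are printed because they show the paired decamers of these genes, as read on the strand of the gene. Capitals mark all 20 bases of a match, its mismatched bases included.
MDM2 (chr12:68808917-68808996, plus strand, 100 to 21 bases before the start of its second promoter): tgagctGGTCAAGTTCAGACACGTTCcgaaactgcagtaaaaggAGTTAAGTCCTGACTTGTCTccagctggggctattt
FAS (chr10:88991304-88991333, plus strand): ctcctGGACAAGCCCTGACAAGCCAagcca
SESN1 (chr6:109009013-109009042, minus strand): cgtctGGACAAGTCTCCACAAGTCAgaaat
GDF15 (chr19:18386181-18386207, plus strand): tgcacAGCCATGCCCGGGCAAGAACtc
MDM2 carried 2 matches, at -94 and -56 from the start site, with 2 and 3 mismatches. The FAS match lay at -122 with 2 mismatches, and it overlapped an annotated exon of FAS. The SESN1 match lay at -49 with 3 mismatches. The GDF15 match lay 29 bases after the start, inside an exon, with 3 mismatches. The windows of CDKN1A, BBC3, TP53I3, ZMAT3 and BTG2 held no such pair, which says only that these letters are not in these windows. The CDKN1A window held 4 copies of the GC box GGGCGG on either strand, a motif present in 45.0% of all windows and in 14 of the 17. A pair of them is in capitals below, in a stretch from 140 to 61 bases before the CDKN1A start.
CDKN1A (chr6:36678574-36678653, plus strand): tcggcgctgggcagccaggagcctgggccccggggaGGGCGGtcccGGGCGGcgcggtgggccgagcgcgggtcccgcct
An ATF4 and CHOP composite motif searched as TGATGNAAN was in none of the 17 windows and in 3.61% of all windows. The AP-1 motif TGANTCA was in 4 windows, of FAS, MDM2 and BBC3, and in 7.71% of all. Those of MDM2 are the same overlapping windows. A match is a description of the letters and not a measured binding site.

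The deposited values were expected counts per gene, with library totals of 20446542 to 32386486 (median 25862356), and levels are given as CPM, counts scaled to the same total in every library. All 7 HepG2 markers examined, such as ALB and AFP, were present in the libraries, and their summed level was 34843 to 47204 CPM with extracts, against 44441 to 48766 CPM with vehicle. APOB made up most of that sum, with a median of 25210 CPM over the 60 libraries, against 7771 CPM for ALB. With Menthae Herba at 500 µg/mL 2 of the 7 were called higher than vehicle and 1 lower, beside 19.8% and 20.0% of all genes. Of the 6 leukocyte markers 2 had a median of at least 1 CPM, PTPRC, CD3E and ITGAM lay at or near 0, and the summed level, 972 to 2629 CPM with extracts against 925 to 974 CPM with vehicle, was carried by LYZ. Of the 6 fibroblast markers 1 had such a median, COL1A2, DCN and LUM lay at or near 0, and the sum, 8.23 to 25.6 CPM against 13.1 to 14.5 CPM, was carried by PDGFRB. LYZ and PDGFRB were highest with Menthae Herba at 500 µg/mL (means of 2586 and 24.5 CPM, against 939.7 and 12.3 CPM with vehicle), where GDF15 was highest too, and their part in the result was not tested. Vehicle replicate 1 stood apart from the other vehicle libraries, with a chi-square per degree of freedom over genes of 15.9 and 13.0 against replicates 2 and 3, and of 3.04 between those. All 18 comparisons with vehicle share the 3 vehicle libraries, so a comparison of 500 with 20 µg/mL inside an extract is given beside them. By the same chi-square, some 20 µg/mL groups also held a library apart. At 20 µg/mL Menthae Herba replicate 3 had 15.51 and 12.08 against replicates 1 and 2, with 3.599 between those. Guibi-tang replicate 1 had 17.27 and 14.83, with 4.345 between replicates 2 and 3. Okbyeongpung-san replicate 3 had 14.21 and 15.21, with 4.46 between replicates 1 and 2. The pairs of Saposhnikoviae Radix, Saengmaek-san and Soyo-san at 20 µg/mL had at most 6.535. Groups at higher doses varied as well. Menthae Herba at 500 µg/mL had 14.88 between replicates 1 and 2, 8.632 between 2 and 3 and 5.385 between 1 and 3. At that dose replicate 1 had 11.03 and 16.24 with Saengmaek-san, and 12.24 and 11.06 with Saposhnikoviae Radix. Every pair of Guibi-tang at 100 µg/mL lay between 13.43 and 17.95. The vehicle libraries also have a first code number in the sample description (B1) that no extract shares. A difference between vehicle and an extract cannot be told apart from one between code numbers. The doses of an extract share 1 code number. Nothing in the labels says that replicates were separate cultures, and p-values then measure only the spread between these libraries. In bulk RNA, fewer cells of a kind and less RNA per cell cannot be told apart.

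Per kilobase of exon, GDF15 had the highest median level of the 10 genes over the 60 libraries, at 45.7 CPM per kb. CDKN1A had 24.3, MDM2 16.9 and TP53I3 11.1 CPM per kb. ZMAT3, BTG2, RRM2B and SESN1 lay between 5.51 and 6.01 CPM per kb, and FAS (3.42) and BBC3 (3.20) were the lowest. p53 is regulated mainly through the stability of its protein, which was not measured.

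Menthae Herba at 500 µg/mL raised GDF15 4.13-fold over vehicle and gave the highest level of the gene in the series. GDF15 (chr19:18374731-18389176, plus strand, GENCODE v29) had 358, 444 and 415 CPM in the 3 libraries with 500 µg/mL Menthae Herba, against 88.7, 103 and 103 CPM with vehicle. Every treated library was more than 3 times the highest vehicle library, and the groups did not overlap. The log2 fold change was 2.05 ± 0.10 (SE; adjusted p = 1.313e-21, quasi-likelihood F test of edgeR, adjusted by Benjamini-Hochberg over all 16644 genes, as is every adjusted p given here). At 20 µg/mL GDF15 had 93.5, 101 and 104 CPM, which overlapped vehicle (log2 fold change 0.02, edgeR adjusted p = 0.9421). At 100 µg/mL it had 129, 152 and 138 CPM, all above vehicle, a log2 fold change of 0.51 ± 0.09 (edgeR adjusted p = 0.0002045). The step between 20 and 500 µg/mL was thus almost the same as that between vehicle and 500 µg/mL, with a log2 fold change of 2.03 ± 0.10 for 500 against 20 µg/mL (edgeR adjusted p = 2.497e-21).

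GDF15 also rose with 3 of the 4 replicated formulas at 500 µg/mL. With Guibi-tang it had 161, 191 and 166 CPM at 500 µg/mL, against 87.4, 80.1 and 85.7 CPM at 20 µg/mL. With Soyo-san it had 146, 168 and 182 CPM at 500 µg/mL, against 80.8, 83.8 and 99.2 CPM at 20 µg/mL. With Saengmaek-san it had 111, 134 and 134 CPM at 500 µg/mL, against 85.6, 88.6 and 85.6 CPM at 20 µg/mL. In each of these 3 formulas the doses did not overlap, and all 3 libraries at 500 µg/mL were above the 3 vehicle libraries. The log2 fold change of 500 against 20 µg/mL was 1.03 ± 0.09 for Guibi-tang (edgeR adjusted p = 6.619e-11), 0.91 ± 0.10 for Soyo-san (1.504e-09) and 0.55 ± 0.10 for Saengmaek-san (0.0002945). Against vehicle the values at 500 µg/mL were 0.81 for Guibi-tang (edgeR adjusted p = 1.458e-08), 0.75 for Soyo-san (7.209e-08) and 0.37 for Saengmaek-san (0.006697). The Saengmaek-san call against vehicle was lost without vehicle replicate 1 (log2 fold change 0.30, edgeR adjusted p = 0.06844).

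GDF15 did not pass the test for 500 against 20 µg/mL with Saposhnikoviae Radix or Okbyeongpung-san. Saposhnikoviae Radix had 93.9, 91.3 and 101 CPM at 500 µg/mL, against 87.3, 89.3 and 93.1 CPM at 20 µg/mL (log2 fold change 0.09 ± 0.10, edgeR adjusted p = 0.9348). Okbyeongpung-san had 84.5, 89.8 and 103 CPM at 500 µg/mL, against 81.5, 95.1 and 85.4 CPM at 20 µg/mL (0.08 ± 0.10, edgeR adjusted p = 0.9943). The doses of both overlapped. Okbyeongpung-san at 100 µg/mL gave the only GDF15 value called below vehicle, 72.2, 84.3 and 75.3 CPM against 88.7, 103 and 103 CPM (log2 fold change -0.34 ± 0.10, edgeR adjusted p = 0.01349), and that call was lost in 5 of 12 alternative settings. Ordered by group mean, GDF15 was 405 ± 43.8 CPM with Menthae Herba at 500 µg/mL (SD, n = 3), then 172 ± 16.4 with Guibi-tang, 165 ± 18.2 with Soyo-san, 139 ± 11.9 with Menthae Herba at 100 µg/mL and 127 ± 13.5 with Saengmaek-san. The other 14 groups, vehicle included, had means of 77.3 to 99.8 CPM. Of the 18 pairs of neighbours in that order only 2 did not overlap, the pair below Menthae Herba at 500 µg/mL and the pair below Saengmaek-san at 500 µg/mL.

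**Figure D1:**
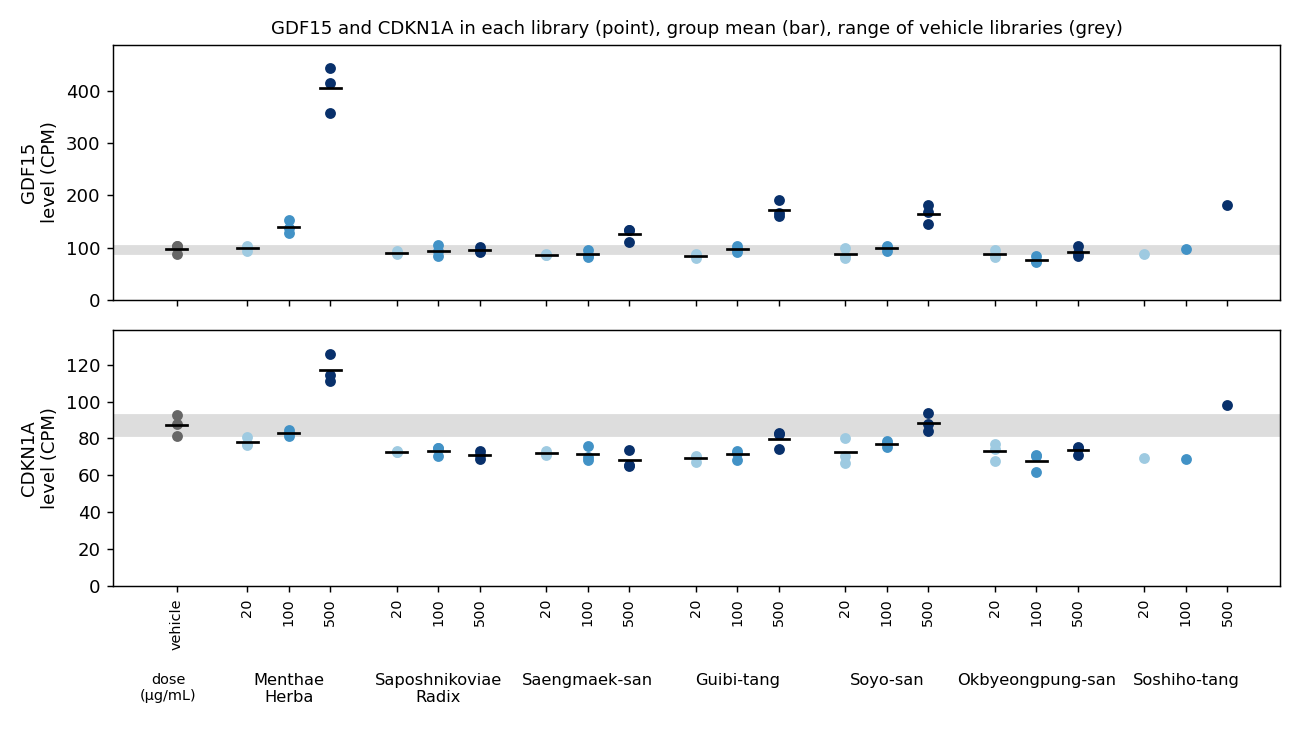
Level in CPM (linear axis from 0) of GDF15 (top) and CDKN1A (bottom) in each library, by extract and dose in µg/mL; points are libraries, bars group means and the grey band the range of the 3 vehicle libraries. GDF15 stands at 358 to 444 CPM with 500 µg/mL Menthae Herba, and CDKN1A lies below the grey band in most other groups.

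CDKN1A, which encodes the cyclin-dependent kinase inhibitor p21, rose with Menthae Herba at 500 µg/mL and was below vehicle with most other treatments. The gene (chr6:36676460-36687339, plus strand) had 111, 126 and 114 CPM with 500 µg/mL Menthae Herba, against 81.2, 92.9 and 87.7 CPM with vehicle. The groups did not overlap, and the log2 fold change was 0.43 ± 0.06 (1.34-fold, edgeR adjusted p = 3.051e-08). At 20 µg/mL it had 77.1, 76.6 and 80.7 CPM, all below the 3 vehicle libraries, and at 100 µg/mL 82.9, 84.7 and 81.1 CPM, which overlapped them. Neither lower dose passed the test against vehicle (log2 fold changes -0.16 and -0.07, edgeR adjusted p = 0.09207 and 0.4511). Set against 20 µg/mL, the change at 500 µg/mL was larger, with a log2 fold change of 0.58 ± 0.06 (edgeR adjusted p = 7.737e-12).

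Outside Menthae Herba, CDKN1A was called lower than vehicle in 12 of the 15 comparisons and higher in 0. At 20 µg/mL it was called lower in 5 of 6 extracts, at 100 µg/mL in 4 and at 500 µg/mL in 3, with log2 fold changes down to -0.36. The lowest group was Okbyeongpung-san at 100 µg/mL, with 61.9, 70.3 and 71.2 CPM against 81.2, 92.9 and 87.7 CPM with vehicle (log2 fold change -0.36 ± 0.06, edgeR adjusted p = 4.789e-05). With Menthae Herba counted, every library lay below vehicle in 6 of 6 extracts at 20 µg/mL, 5 at 100 µg/mL and 3 at 500 µg/mL. The 12 calls rest on 1 set of vehicle libraries, and 4 of them were lost in 2 to 4 of the 12 alternative settings. They cannot be told apart from a difference of the vehicle libraries or of their code number. Inside an extract, CDKN1A was higher at 500 than at 20 µg/mL with Soyo-san and Guibi-tang as well as with Menthae Herba. Soyo-san had 83.8, 87.8 and 94.0 CPM at 500 µg/mL, against 70.7, 66.4 and 80.4 CPM at 20 µg/mL (log2 fold change 0.29 ± 0.06, edgeR adjusted p = 0.0005456). Guibi-tang had 83.1, 82.3 and 74.5 CPM at 500 µg/mL, against 70.7, 69.9 and 67.4 CPM at 20 µg/mL (0.21 ± 0.06, edgeR adjusted p = 0.02007). The doses of both did not overlap, but the Guibi-tang call was lost without its replicate 1 or 2 at 500 µg/mL or its replicate 3 at 20 µg/mL, with edgeR adjusted p of 0.09904 to 0.1121.

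BTG2, a further brake on proliferation that recruits the CCR4-NOT deadenylase to mRNAs, followed another course. It (chr1:203305491-203309602, plus strand) was lowest with Menthae Herba at 100 µg/mL, with 13.5, 13.2 and 15.3 CPM, against 17.0, 20.2 and 19.7 CPM with vehicle. The groups did not overlap, and the log2 fold change was -0.43 ± 0.07 (edgeR adjusted p = 4.534e-05). At 500 µg/mL it had 16.7, 18.1 and 16.6 CPM, which overlapped vehicle (log2 fold change -0.15, edgeR adjusted p = 0.1108). Over the 18 comparisons with vehicle BTG2 was called lower in 9 and higher in 0, and all 18 log2 fold changes were below 0 (-0.43 to -0.03). The calls fell in Saposhnikoviae Radix and Saengmaek-san at all 3 doses, Guibi-tang at 100 and 500 µg/mL and Menthae Herba at 100 µg/mL. Of these 9 calls 6 were lost in 1 to 4 of the 12 alternative settings, and those of Menthae Herba at 100 µg/mL, Saposhnikoviae Radix at 500 µg/mL and Saengmaek-san at 20 µg/mL held in all 12. BTG2 passed the test in 0 of the 6 comparisons of 500 with 20 µg/mL, by edgeR, by DESeq2 or at an unadjusted p under 0.05.

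MDM2, the ubiquitin ligase in the negative feedback on p53, was called in 1 pairwise comparison, that of the doses of Menthae Herba. It (chr12:68808176-68850686, plus strand) had 240.9, 249 and 257 CPM with Menthae Herba at 500 µg/mL, against 192, 205 and 196 CPM at 20 µg/mL. The doses did not overlap, and the log2 fold change was 0.33 ± 0.09 (edgeR adjusted p = 0.003916). Vehicle had 239.8, 214 and 222 CPM, only just under the libraries at 500 µg/mL, and MDM2 passed the test against vehicle in 0 of 18 comparisons by edgeR and 0 by DESeq2, with 1 at an unadjusted p under 0.05, that of Menthae Herba at 20 µg/mL (log2 fold change -0.19 ± 0.09, edgeR adjusted p = 0.2187). Menthae Herba at 500 µg/mL against vehicle gave 0.14 ± 0.09 (edgeR adjusted p = 0.2206). The libraries also fell into a higher and a lower class by the level of MALAT1, a nuclear RNA. With that class as a covariate MDM2 was called lower than vehicle in 12 of 18 comparisons and higher in 1, Menthae Herba at 500 µg/mL (0.14, edgeR adjusted p = 0.03045), which was also called in a fit of only the groups compared (0.02617). Its paralog MDM4, which also inhibits p53, had a log2 fold change of 0.01 at 500 µg/mL against vehicle. ZMAT3 (chr3:179017223-179072279, minus strand), a zinc finger protein that binds RNA and acts on splicing, passed the test in 0 of 18 comparisons with vehicle and 0 of 6 between doses, by edgeR and by DESeq2, with 8 and 1 at an unadjusted p under 0.05. With the MALAT1 class as a covariate ZMAT3 was called lower than vehicle in 14 of 18 comparisons, with Guibi-tang at 500 µg/mL at -0.31 (edgeR adjusted p = 0.0006223), and higher at 500 than at 20 µg/mL of Menthae Herba (0.19, edgeR adjusted p = 0.01828). It had 62.8, 59.8 and 65.5 CPM with Menthae Herba at 500 µg/mL, against 66.7, 59.3 and 59.9 CPM with vehicle, and its group means over the series were 52.9 to 63.2 CPM.

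Of the death genes, BBC3 and TP53I3 rose with Menthae Herba and FAS did not pass the test there. Vehicle had the lowest group mean of BBC3 and of TP53I3. All 18 log2 fold changes against vehicle were above 0 for BBC3 (0.03 to 0.55) and TP53I3 (0.00 to 0.44). BBC3 was called in 2 of the 18 and TP53I3 in 3. For FAS all 18 were below 0 (-0.33 to -0.04). With the MALAT1 class as a covariate BBC3 was called higher in 6 of the 18, TP53I3 higher in 4 and FAS lower in 4. BBC3 (chr19:47220822-47232766, minus strand), which encodes PUMA, a BH3-only protein that neutralises the survival proteins of the BCL2 family, had 13.1, 14.8 and 12.0 CPM at 500 µg/mL, against 7.79, 10.4 and 9.11 CPM with vehicle. All 3 treated libraries were above vehicle, with a log2 fold change of 0.55 ± 0.09 (edgeR adjusted p = 3.631e-06). At 20 µg/mL it had 10.5, 10.6 and 11.6 CPM (0.26 ± 0.10, edgeR adjusted p = 0.08461). At 100 µg/mL it had 11.5, 12.2 and 11.2 CPM (0.36 ± 0.10, edgeR adjusted p = 0.007576), again above vehicle, but this call was lost without vehicle replicate 1 (log2 fold change 0.25, edgeR adjusted p = 0.1422). The comparison of 500 with 20 µg/mL gave 0.29 ± 0.09 (edgeR adjusted p = 0.01278), a call lost without Menthae Herba 500 µg/mL replicate 2 (edgeR adjusted p = 0.1231). Vehicle replicate 1 was the lowest vehicle library for BBC3 and TP53I3 and the highest for FAS.

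TP53I3 (chr2:24077433-24085861, minus strand), a quinone oxidoreductase linked to oxidative stress in p53-dependent death, had 32.3, 32.9 and 30.9 CPM at 500 µg/mL, against 21.4, 24.5 and 24.9 CPM with vehicle. The groups did not overlap, the log2 fold change was 0.44 ± 0.07 (edgeR adjusted p = 9.421e-07), and no other group of the series reached this level. Against 20 µg/mL, with 27.8, 25.5 and 26.6 CPM, the log2 fold change was 0.27 ± 0.07 (edgeR adjusted p = 0.002181). Soyo-san at 500 µg/mL had 26.1, 29.2 and 26.2 CPM of TP53I3, all above vehicle (0.21 ± 0.07, edgeR adjusted p = 0.03337), a call lost in 3 of 12 alternative settings, among them without vehicle replicate 1 (0.14, edgeR adjusted p = 0.2223). FAS (chr10:88990582-89015785, plus strand), the death receptor that assembles caspase-8 through FADD, had 14.3, 14.6 and 17.1 CPM with Menthae Herba at 500 µg/mL, against 18.1, 14.1 and 14.7 CPM with vehicle, with overlap. FAS passed the test once in the series, with Saposhnikoviae Radix at 500 µg/mL, where it had 13.5, 12.0 and 11.9 CPM against the same vehicle libraries (-0.33 ± 0.08, edgeR adjusted p = 0.01218). That call was lost in 4 of 12 alternative settings, among them without vehicle replicate 1 (-0.21, edgeR adjusted p = 0.2495).

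RRM2B and SESN1 serve repair and metabolism. Against vehicle all 18 log2 fold changes were above 0 for RRM2B (0.00 to 0.26) and below 0 for SESN1 (-0.23 to -0.05). RRM2B (chr8:102204502-102239118, minus strand), the p53-inducible small subunit of ribonucleotide reductase, had 34.3, 35.0 and 37.8 CPM with Menthae Herba at 500 µg/mL, against 32.4, 28.4 and 30.2 CPM with vehicle. The groups did not overlap (log2 fold change 0.23 ± 0.07, edgeR adjusted p = 0.007938), but the call was lost without Menthae Herba 500 µg/mL replicate 3 (edgeR adjusted p = 0.05356) or vehicle replicate 2 (0.05529). Against 20 µg/mL, where it had 31.6, 32.6 and 26.9 CPM, RRM2B gave 0.23 ± 0.07 (edgeR adjusted p = 0.01002), lost without replicate 3 of either dose (0.06349 and 0.1235). The other ribonucleotide reductase subunits went the other way against vehicle, with log2 fold changes of -0.35 for RRM1 and -0.17 for RRM2, both called lower. SESN1 (chr6:108986437-109094819, minus strand), a sestrin that restrains the growth kinase mTORC1, had 27.0, 29.1 and 27.9 CPM with Menthae Herba at 500 µg/mL, against 31.1, 31.6 and 29.7 CPM with vehicle. The groups did not overlap, yet the change did not pass the test (-0.14 ± 0.06, edgeR adjusted p = 0.06389). SESN1 was called lower than vehicle in 4 of 18 comparisons, of which only Guibi-tang at 500 µg/mL (26.4, 26.4 and 25.9 CPM, -0.23 ± 0.06, edgeR adjusted p = 0.006512) held in all 12 alternative settings. Its paralogs SESN2 and SESN3 were called higher with Menthae Herba at 500 µg/mL, with log2 fold changes of 0.22 and 0.46, and the SESN2 call was lost without vehicle replicate 1 (0.14, edgeR adjusted p = 0.1694) or Menthae Herba 500 µg/mL replicate 2 (0.19, 0.07175).

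**Figure D2:**
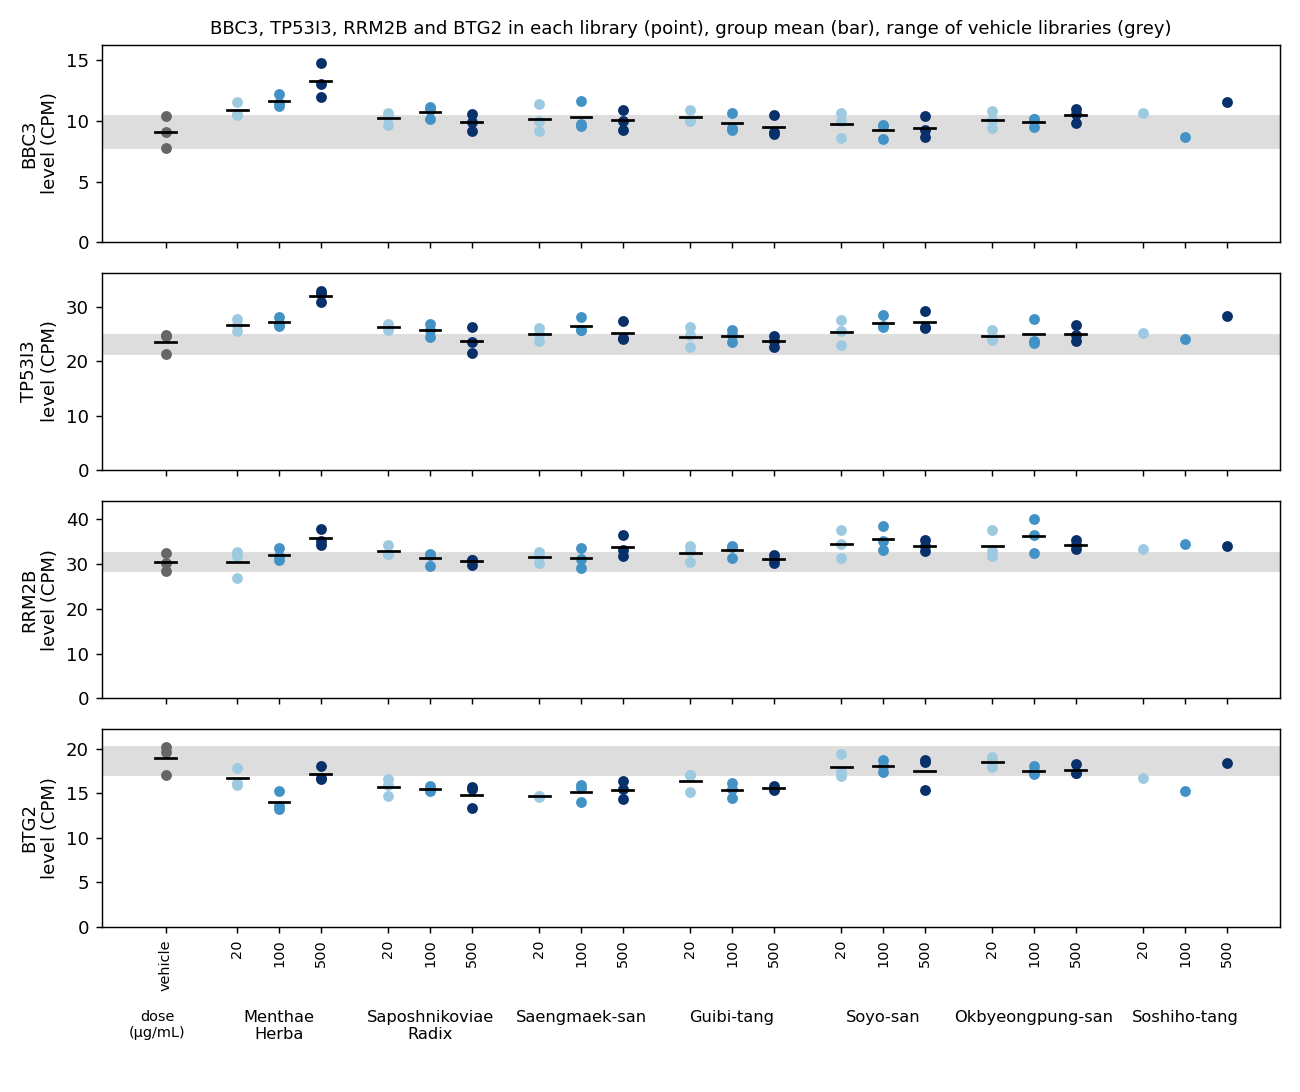
Level in CPM (linear axes from 0) of BBC3, TP53I3, RRM2B and BTG2 in each library, by extract and dose in µg/mL; points are libraries, bars group means and the grey band the range of the 3 vehicle libraries. BBC3 and TP53I3 are highest with 500 µg/mL Menthae Herba, at 12.0 to 14.8 and 30.9 to 32.9 CPM, and BTG2 is lowest with 100 µg/mL Menthae Herba, at 13.2 to 15.3 CPM.

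Counted together, 5 of the 10 genes were called higher and 0 lower with Menthae Herba at 500 µg/mL against vehicle, in a comparison where 19.8% of all 16644 genes were called higher and 20.0% lower. Against 20 µg/mL 6 were called higher and 0 lower, where 16.2% of all genes were called higher and 16.0% lower. With vehicle replicate 1 left out 6 were called at 500 µg/mL, BTG2 being added as lower (log2 fold change -0.22, edgeR adjusted p = 0.02454). At 20 µg/mL 0 of the 10 genes were called, by edgeR or by DESeq2, with 6 at an unadjusted p under 0.05 and 6.81% of all genes called in either direction. At 100 µg/mL 3 were called higher (GDF15, BBC3, TP53I3) and 2 lower (SESN1, BTG2), with 13.9% of all genes called. The calls of TP53I3 and SESN1 at 100 µg/mL were each lost in 6 of 12 alternative settings. Without vehicle replicate 1 the share of all genes called was 0.709% at 20 µg/mL and 6.07% at 100 µg/mL, and 2 genes of the 10 were called at 100 µg/mL, GDF15 and BTG2.

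The other extracts had 1 to 4 calls among the 10 genes at each dose. With Saposhnikoviae Radix, CDKN1A and BTG2 were lower at 20 µg/mL (7.18% of all genes called in either direction) and 100 µg/mL (5.38%), and CDKN1A, SESN1, FAS and BTG2 were lower at 500 µg/mL (5.79%). Saengmaek-san had CDKN1A and BTG2 called lower at 20 (3.42%), 100 (6.06%) and 500 µg/mL (12.6%), with GDF15 higher at 500 µg/mL. Guibi-tang had CDKN1A lower at 20 µg/mL (4.28%), CDKN1A and BTG2 lower at 100 µg/mL (7.89%), and GDF15 higher with SESN1 and BTG2 lower at 500 µg/mL (13.4%). Soyo-san had CDKN1A lower at 20 µg/mL (4.00%), RRM2B higher at 100 µg/mL (8.29%), and GDF15 and TP53I3 higher with SESN1 lower at 500 µg/mL (21.4%). Okbyeongpung-san had CDKN1A lower at 20 µg/mL (6.92%), RRM2B higher with CDKN1A and GDF15 lower at 100 µg/mL (12.9%), and CDKN1A lower at 500 µg/mL (9.11%). The RRM2B call was lost in 6 of 12 alternative settings with Soyo-san (edgeR adjusted p up to 0.3084) and in 4 of 12 with Okbyeongpung-san (up to 0.1904). Without vehicle replicate 1 the count was 2 in place of 4 for Saposhnikoviae Radix at 500 µg/mL, 2 in place of 1 for Guibi-tang at 20 µg/mL and 2 in place of 1 for Soyo-san at 100 µg/mL. Leaving that library out also lost GDF15 with Saengmaek-san at 500 µg/mL. With Soyo-san at 500 µg/mL it lost TP53I3 and SESN1 and gained RRM2B as higher (0.22, edgeR adjusted p = 0.04826). In Saposhnikoviae Radix at 20, 100 and 500 µg/mL the share of all genes called was then 1.60%, 0.703% and 1.96%. The share was lower in the other extracts too, for instance 1.80% with Saengmaek-san at 100 µg/mL.

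Between doses of 1 extract, the calls outside Menthae Herba were those of GDF15 and CDKN1A, with SESN1 in addition. For 500 against 20 µg/mL, GDF15 and CDKN1A were called higher and SESN1 lower with Guibi-tang (8.14% of all genes called in either direction), GDF15 and CDKN1A higher with Soyo-san (7.56%) and GDF15 higher with Saengmaek-san (1.89%). With Saposhnikoviae Radix (0.391% of all genes) and Okbyeongpung-san (0.0240%) 0 of the 10 genes were called by edgeR and 0 by DESeq2, with 1 and 0 at an unadjusted p under 0.05. The SESN1 call in Guibi-tang (-0.18 ± 0.06, edgeR adjusted p = 0.0491) was lost in 9 of 13 alternative settings.

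Whether the dose effect itself differed between extracts was tested with an interaction of extract and dose. It differed among the 6 replicated extracts for 3 of the 10 genes, with 18.5% of all genes called. These were GDF15 (edgeR adjusted p = 2.778e-15), CDKN1A (2.3e-08) and TP53I3 (0.02597), the last lost in 5 of 43 alternative settings. Menthae Herba was also set against the mean dose effect of the other 5 extracts, where 12.0% of all genes were called higher and 11.9% lower. It was singled out because earlier results of these same data gave it the most changed genes. The p-values of this contrast do not allow for that choice. Of the 10 genes 6 were higher in Menthae Herba and 0 lower. GDF15 exceeded the mean of the others by 1.498 ± 0.10 on the log2 scale (edgeR adjusted p = 2.387e-15) and CDKN1A by 0.50 ± 0.06 (1.646e-08). BBC3 (0.32 ± 0.10, edgeR adjusted p = 0.01464), MDM2 (0.28 ± 0.10, 0.03885), TP53I3 (0.28 ± 0.08, 0.005581) and RRM2B (0.25 ± 0.08, 0.0166) exceeded it by less. GDF15, CDKN1A and TP53I3 kept the call in all 43 alternative settings of this last contrast. BBC3 and RRM2B lost it in 2 and MDM2 in 4, each time on leaving out 1 Menthae Herba library.

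**Figure D3:**
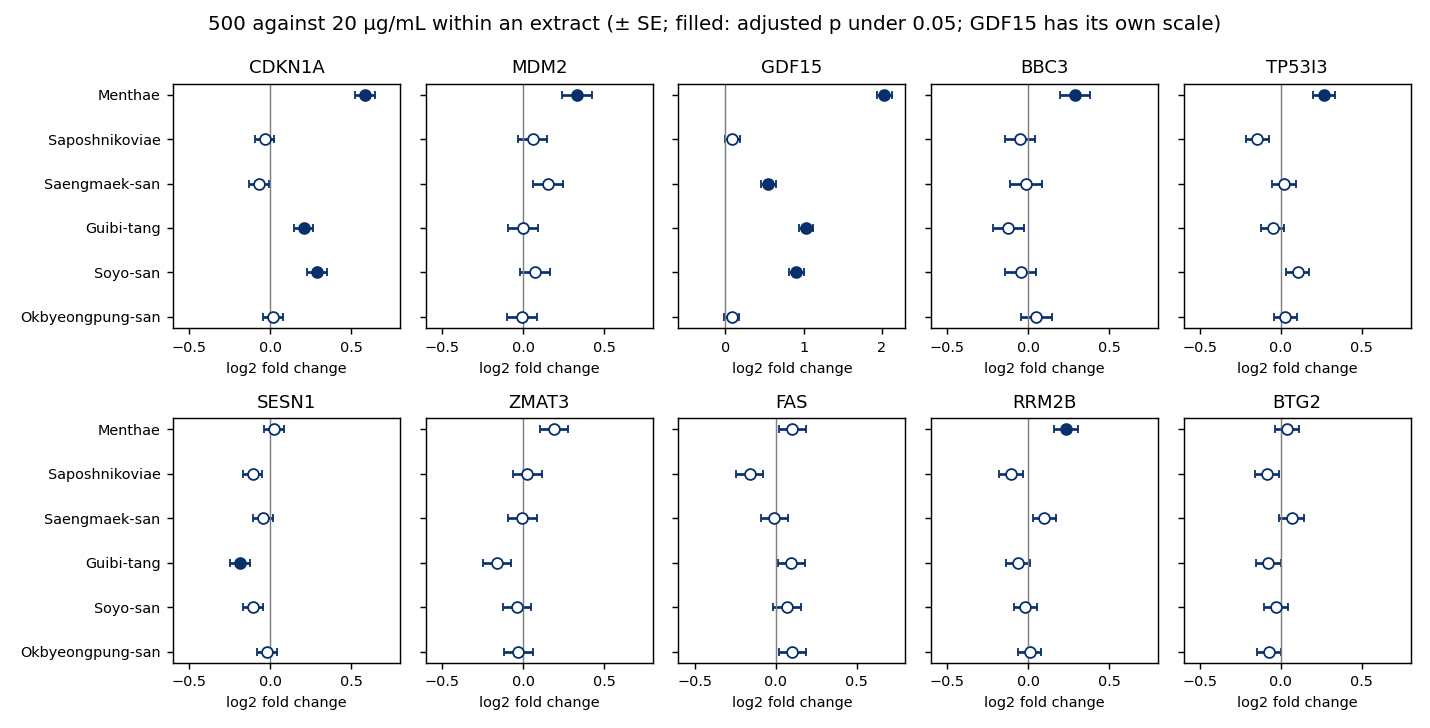
Log2 fold change of 500 against 20 µg/mL (± SE) for each of the 10 genes in the 6 replicated extracts; filled points have an edgeR adjusted p under 0.05, and GDF15 has a wider axis than the other panels. GDF15 is called in 4 extracts (0.55 to 2.03), CDKN1A in 3 (0.21 to 0.58) and MDM2, BBC3, TP53I3 and RRM2B in Menthae Herba alone.

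Soshiho-tang had 1 library per dose and no replicate check, so its values are given without a test. GDF15 was at 86.9 CPM at 20 µg/mL (95% exact Clopper-Pearson interval 83.3 to 90.6, counting error only), 97.1 CPM at 100 µg/mL (93.4 to 101) and 181 CPM at 500 µg/mL (176 to 186). CDKN1A was at 69.5 CPM (66.3 to 72.9), 68.7 CPM (65.5 to 71.9) and 98.2 CPM (94.5 to 102) at the same doses. On the log2(CPM + 0.5) scale, 500 over 20 µg/mL was 1.05 for GDF15 and 0.49 for CDKN1A. GDF15 was the only one of the 10 genes past 1.5-fold, as were 3.58% of all genes. The GDF15 level at 500 µg/mL lay inside the range of the Guibi-tang and Soyo-san libraries at that dose (146 to 191 CPM), and CDKN1A lay above theirs (74.5 to 94.0 CPM).

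Further genes of the pathway were counted in lists drawn up by role, each read against the share of all genes called in the same comparison. The lists overlap, and SESN2, for instance, was counted as a further p53 target and again among the partners and paralogs. For Menthae Herba at 500 µg/mL that share was 19.8% higher and 20.0% lower against vehicle, and 16.2% higher and 16.0% lower against 20 µg/mL. Of 31 further p53 targets, all tested, 10 were called higher and 7 lower with Menthae Herba at 500 µg/mL against vehicle, with a median log2 fold change of 0.04 beside 0.00 over all genes. Those with the largest changes were PLK3, a stress kinase (0.74 ± 0.10, edgeR adjusted p = 6.139e-09), TP53INP1, which promotes p53 activity and autophagy (0.70 ± 0.06, 1.412e-13), PMAIP1, the BH3-only protein NOXA (0.70 ± 0.27, 0.03521), and KITLG, the KIT ligand (-0.61 ± 0.12, 2.097e-05). PMAIP1 had means of only 1.21 and 0.749 CPM, and its call was lost in 6 of 12 alternative settings, with edgeR adjusted p up to 0.2131 (without vehicle replicate 1, 0.49) and with DESeq2 at an adjusted p of 0.06219. Against 20 µg/mL 11 of the 31 were higher and 3 lower (median 0.00, all genes -0.01). In the other extracts the same comparison of doses called 0 of the 31 by edgeR with Saposhnikoviae Radix, Saengmaek-san and Okbyeongpung-san (2, 3 and 1 at an unadjusted p under 0.05), 2 lower with Guibi-tang and 1 lower with Soyo-san, where 8.14% and 7.56% of all genes were called in either direction.

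Of 8 regulators of p53, 1 was called higher and 3 lower with Menthae Herba at 500 µg/mL against vehicle (median -0.06), with 19.8% and 20.0% of all genes. ATM, the kinase that signals double-strand breaks, was higher (0.22 ± 0.08, edgeR adjusted p = 0.02979), a call lost in 3 of 12 alternative settings (without Menthae Herba 500 µg/mL replicate 1 or 3 or vehicle replicate 2, edgeR adjusted p of 0.06266 to 0.154). The checkpoint kinases CHEK2 (-0.47 ± 0.06, 4.485e-10) and CHEK1 (-0.16 ± 0.05, 0.00649) and the deubiquitinase USP7 (-0.39) were lower, and the CHEK1 call was lost with no filter (edgeR adjusted p = 0.0845). Against 20 µg/mL 2 of the 8 were higher, ATM (0.26) and HIPK2, a kinase that phosphorylates p53 (0.33), and 2 lower, CHEK2 (-0.48) and USP7 (-0.18). Among the 22 partners and paralogs of the 10 genes, 19 were tested. With Menthae Herba at 500 µg/mL against vehicle 7 of them were called higher and 6 lower, and the values that follow are of that comparison. The lower ones included CDK2 (-0.55), the kinase that p21 inhibits, its cyclin CCNE1 (-0.42) and CCND1 (-0.48), as well as the related inhibitor CDKN1B (-0.24). The survival proteins MCL1 (0.45) and BCL2L1 (0.24), the effector BAK1 (0.21), the adaptor FADD (0.42) and BTG1 (0.72), a paralog of BTG2, were higher. GFRAL, the receptor of GDF15, had 0 counts in all 60 libraries, which allows up to 0.147 CPM in the smallest library, and FASLG, the ligand of FAS, was at most 0.043 CPM.

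Genes of the integrated stress response, which shares GDF15 with p53, were counted in the same way. Of 10 stress response genes 9 were tested, and 8 were called higher and 0 lower with Menthae Herba at 500 µg/mL against vehicle (median 0.40). DDIT4, an inhibitor of mTORC1, rose to a mean of 55.3 CPM, against 15.6 CPM with vehicle (1.82 ± 0.11, edgeR adjusted p = 1.66e-19). The transcription factor ATF3 was at 8.59 against 3.27 CPM (1.39 ± 0.13, 1.226e-12) and ASNS, asparagine synthetase, at 52.9 against 31.4 CPM (0.75 ± 0.06, 1.86e-14). PPP1R15A, which restores translation after stress, gave 0.47 ± 0.06 (edgeR adjusted p = 1.285e-08), and PSAT1 was the tested gene not called. Against 20 µg/mL 6 of the 9 were higher and 0 lower (median 0.51). With Guibi-tang 2 were higher and 2 lower for 500 against 20 µg/mL, and with Soyo-san 1 was higher and 0 lower, beside 8.14% and 7.56% of all genes called in either direction.

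Genes of the cell cycle listed as repressed by p21 through the DREAM complex fell with Menthae Herba, and the part of p21 in this was not tested. All 10 of the list were called lower with Menthae Herba at 500 µg/mL, against vehicle (median -0.72) and against 20 µg/mL (median -0.63). The mitotic kinase PLK1 was at a mean of 177 CPM, against 349 CPM with vehicle (-0.97 ± 0.05, edgeR adjusted p = 1.691e-23). The proliferation marker MKI67 was at 327 against 629 CPM (-0.94 ± 0.09, 4.56e-12), cyclin A2 (CCNA2) at 77.2 against 140.3 CPM (-0.86 ± 0.05, 1.822e-21) and CDC20, the activator of the anaphase-promoting complex, at 63.0 against 112 CPM (-0.83 ± 0.05, 1.973e-18). For 500 against 20 µg/mL 5 of the 10 were lower with Guibi-tang (median -0.15), 6 with Soyo-san (median -0.19), 1 with Saengmaek-san and 0 with Saposhnikoviae Radix or Okbyeongpung-san (2 and 1 at an unadjusted p under 0.05), and 0 were higher in any of these extracts. The share of all genes called in either direction was 8.14% with Guibi-tang, 7.56% with Soyo-san and 1.89% with Saengmaek-san. Against vehicle, Guibi-tang at 500 µg/mL had 8 of the 10 called lower and 0 higher, with 13.4% of all genes called in either direction. CDKN1A was not called in that comparison, with means of 80.0 CPM against 87.3 CPM with vehicle. Genes of these lists were chosen with earlier results of the data known, and the counts are descriptions.

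**Figure D4:**
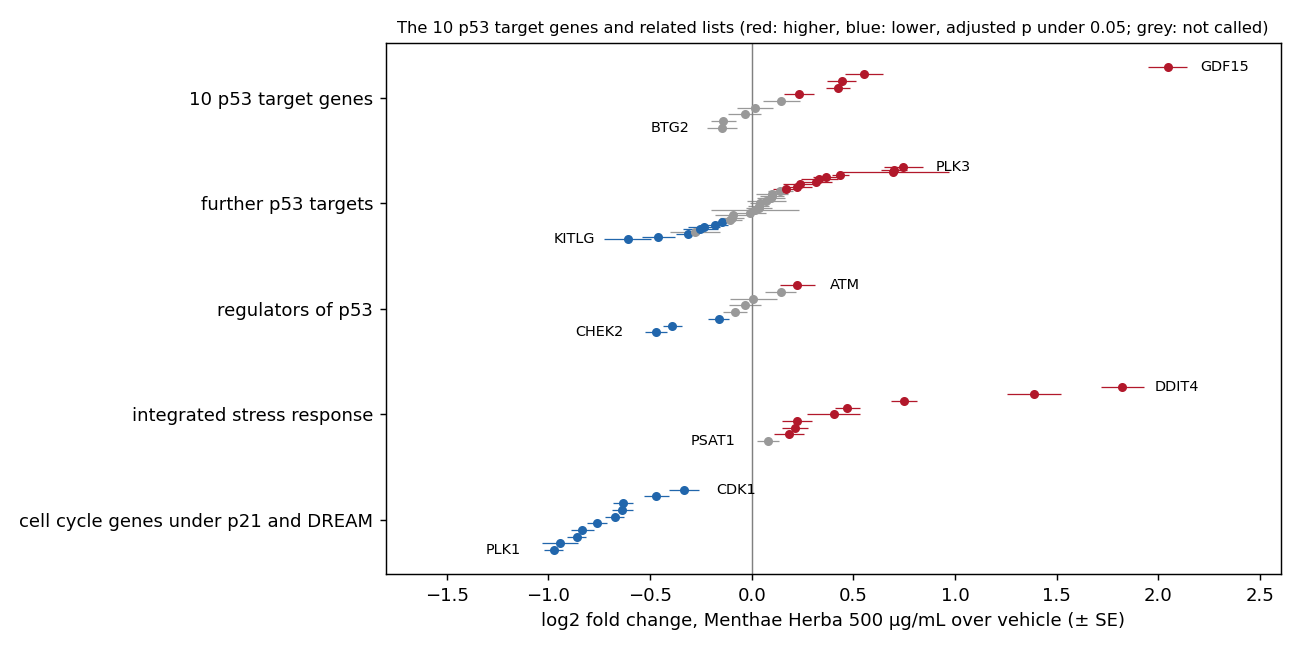
Log2 fold change (± SE) of Menthae Herba at 500 µg/mL over vehicle for the 10 p53 target genes and for the tested genes of 4 related lists; red points were called higher, blue lower and grey not called at an edgeR adjusted p under 0.05, and the ends of each list are named. The further p53 targets spread on both sides of 0 (10 higher, 7 lower), the stress response genes lie above 0 and the 10 cell cycle genes below it.

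Libraries also differed in MALAT1, an abundant nuclear RNA, along lines that the groups follow only in part. MALAT1 was at 387 to 552 CPM in 29 libraries and at 175 to 283 CPM in the other 31. All libraries of Soyo-san, Okbyeongpung-san and Soshiho-tang were in the higher class, all of Menthae Herba, Saposhnikoviae Radix and vehicle in the lower class, and each dose of Saengmaek-san and Guibi-tang had both. Inside those 6 mixed groups MDM2 was higher in the higher class in 6 of 6 (median log2 difference 0.29), as were ZMAT3 (0.22) and FAS (0.16), while BBC3 (-0.17) and CDKN1A (-0.07) were lower in 6 of 6. GDF15 was higher in 2 of 6 (median -0.04). The classes are samples split on the data and not groups of the study. In Menthae Herba and vehicle the class does not vary, and with the class as a covariate GDF15 and CDKN1A kept their calls there. For Soyo-san and Okbyeongpung-san against vehicle, class and group cannot be told apart within these libraries. The covariate takes its slope from the mixed groups alone, and with it the CDKN1A calls of Soyo-san at 20 µg/mL (edgeR adjusted p = 0.08185) and of Okbyeongpung-san at 500 (0.0984) and 20 µg/mL (0.07315) were lost.

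**Figure D5:**
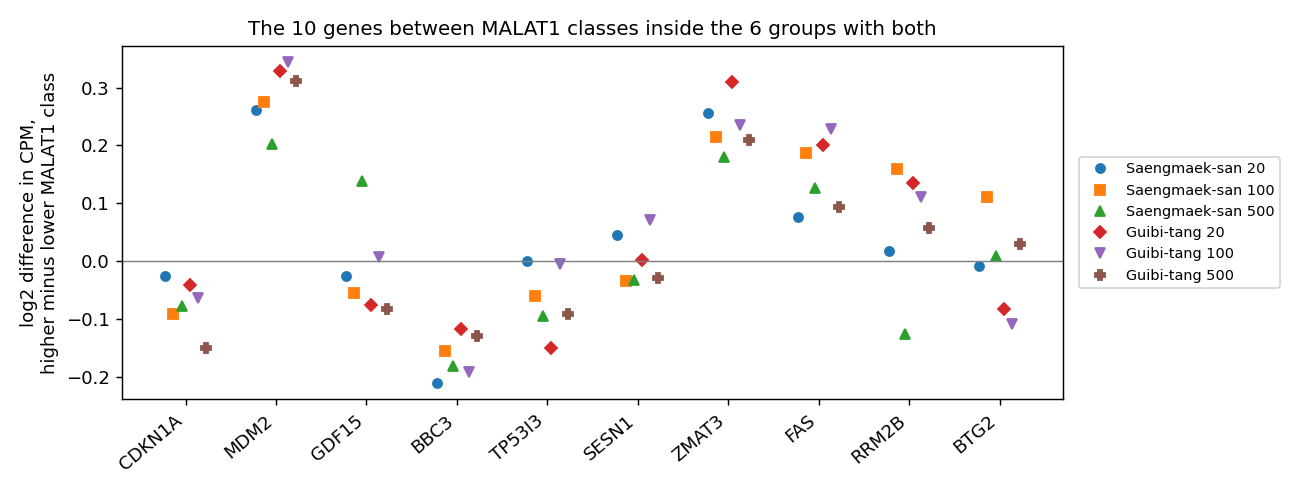
Difference in log2 CPM between libraries of the higher and the lower MALAT1 class (higher minus lower) for each of the 10 genes, inside the 6 groups that hold both; each symbol is 1 group, doses in µg/mL. MDM2, ZMAT3 and FAS lie above 0 in all 6 groups and BBC3 and CDKN1A below 0 in all 6.

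Over the 18 extract groups, with log2 CPM centred within each extract, the pattern of GDF15 was compared with 10668 genes of at least 5 CPM. Among the closest were UBASH3B, a phosphatase of the TULA family (Pearson r = 0.994), ASPH, an aspartate hydroxylase (0.992), RASD1, a Ras-related GTPase (0.987) and IER3, an early response gene (0.986). Without Menthae Herba, over 15 groups, these were 0.966 to 0.984. For CDKN1A the closest were TIMP1 (0.979), an inhibitor of metalloproteinases, TMSB10 (0.978), which binds actin monomers, the surface protein CD24 (0.977), CREBL2 (0.969) and the nuclear receptor NR0B2 (0.968). CDKN1A and GDF15 had r = 0.92 with each other, and 0.78 without Menthae Herba. MDM2 and GDF15 had 0.86, and 0.58 without it. Of the 9 pairs that GDF15 formed with the other genes 8 had a positive r, and 3 without Menthae Herba, those with CDKN1A, MDM2 and FAS. GDF15 and BBC3 had 0.50, and -0.43 without it, GDF15 and TP53I3 0.60, and -0.05 without it, and GDF15 and SESN1 -0.40, and -0.84 without it. CDKN1A and MDM2 had 0.74, and 0.05 without it. The points share libraries and doses, and the coefficients are descriptions without a test.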

How the data were processed

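RNA from HepG2 cells was sequenced as 100 bp paired-end reads from a directional library kit, per the labels' protocols. The authors deposited expected counts per Ensembl gene, which are estimates and need not be whole (71.9% of the nonzero values had no decimal part), and they were rounded before testing. Per the submitters' processing notes, FastQC 0.11.9, Trim Galore 0.6.5, STAR 2.7.3a and RSEM 1.3.3 were used with GRCh38. Annotation release, settings and counting strand: not given in the sources used here. Without the strand, reads of genes that overlap on opposite strands cannot be told apart, which concerns CDKN1A (DINOL), MDM2 (CPM and others), BBC3 (MIR3190), TP53I3 (FAM228B), SESN1 and FAS (ACTA2). GDF15 overlaps MIR3189 and BBC3 overlaps MIR3191 on their own strand.

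Symbols came from a table of gene names (56558 identifiers) and from GENCODE v29 (497), and positions from GENCODE v29. The 10 genes, the gene lists, the alternatives and the contrast of Menthae Herba with the other extracts were chosen with earlier results of these data known. The filterByExpr function of edgeR removed low genes, by group (minimum count 10), and the rest entered the robust quasi-likelihood model of edgeR 4.0.16 (R 4.3.3, TMM scaling) over 57 replicated libraries in 19 groups (common dispersion 0.00345). A gene is called at an adjusted p under 0.05, Benjamini-Hochberg over 16644 genes, and SE is that of the log2 fold change. CPM use the scaled library totals. The scripts were tested on simulated counts. Each dose was compared with vehicle, 500 with 20 µg/mL inside an extract, and the dose effect between extracts by interaction. All 10 genes are described, and from each list the called genes with the largest absolute log2 fold change, up to 4, are named, with MDM4, GFRAL and the partners in any case, apart from genes not reported here. CHAC1, CDKN1C, FASLG and GFRAL did not pass the filter. A count of 3 is 0.0926 to 0.147 CPM at these depths, and intervals and floors cover counting error only. Libraries were split at 300 CPM of MALAT1. Alternatives were RLE scaling, no filter, DESeq2 1.42.0, a fit with only the groups compared, the replicate number as a block, the MALAT1 class as a covariate and leaving out each library. In no comparison did all pairs of samples with the same replicate number correlate above 0.1, and the numbers were not taken as pairs. Promoter sequences are RefSeq windows on GRCh38.p14.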

Additional observations from a re-analysis of the deposited data

Results flagged for a closer look

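The change between 20 and 500 µg/mL differed among the 6 replicated extracts by a test of the interaction itself for GDF15 (edgeR adjusted p = 2.778e-15), CDKN1A (edgeR adjusted p = 2.3e-08) and TP53I3 (edgeR adjusted p = 0.02597). The TP53I3 call was lost in 5 of 43 alternative settings, each of them leaving out 1 library.

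The dose effect of Menthae Herba exceeded the mean of the other 5 extracts for GDF15 (log2 difference 1.498), CDKN1A (0.50), BBC3 (0.32), MDM2 (0.28), TP53I3 (0.28) and RRM2B (0.25), again by a test of the difference. Menthae Herba was singled out with earlier results of these data known, and the test does not allow for that choice. MDM2 has overlapping genes on the opposite strand and was higher in libraries with more MALAT1 within 6 of 6 mixed groups. All Menthae Herba libraries belong to the class with less MALAT1, and with the class as a covariate the MDM2 difference was 0.26 (edgeR adjusted p = 0.0008232). The class did not vary between doses of Menthae Herba, Saposhnikoviae Radix, Soyo-san or Okbyeongpung-san, so the covariate could move this difference only a little and does not decide the part of the class. The MDM2 call of this contrast was lost in 4 of 43 alternative settings, each leaving out 1 Menthae Herba library.

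In Soshiho-tang, whose single libraries enter no comparison, GDF15 stood at 181 CPM at 500 µg/mL, above the highest vehicle library (103 CPM).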

How the results depend on the processing

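The calls of GDF15 and CDKN1A with Menthae Herba at 500 µg/mL, against vehicle, against 20 µg/mL and in both interaction tests, held in all settings run. Over the 10 genes and all comparisons, leaving out 1 library lost 81 and gained 14 calls of 2160 values, DESeq2 lost 0 and gained 1 of 259, RLE scaling lost 1 and gained 1 of 260, no filter lost 6 and gained 13, and a fit with only the groups compared lost 11 and gained 7. The replicate numbers did not pair the samples, since same-numbered samples did not all correlate above 0.1 in any comparison, though single ones reached 0.277 (Saengmaek-san, 500 against 20 µg/mL). With the replicate number as a block 4 calls were gained and 0 lost, and 2 of the 10 genes were called with Soyo-san at 100 µg/mL in place of 1. A block within the first code number of the sample description gained 3 of 80.

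With the MALAT1 class as a covariate 8 calls were lost and 32 gained, and 6 log2 fold changes against vehicle changed sign. Against vehicle ZMAT3 was then called lower in 14 of 18 comparisons and MDM2 lower in 12 and higher in 1, in place of 0 for both. The changes of sign were MDM2 with Soyo-san at 20 (-0.25) and 100 µg/mL (-0.24) and Okbyeongpung-san at 20 (-0.23), 100 (-0.20) and 500 µg/mL (-0.24), and ZMAT3 with Okbyeongpung-san at 100 µg/mL (-0.22). The number of the 10 genes called against vehicle was then 2 for Menthae Herba at 20 µg/mL, 4 and 4 for Saposhnikoviae Radix at 20 and 100 µg/mL, 4 and 4 for Saengmaek-san at 20 and 100 µg/mL, 3 and 5 for Guibi-tang at 20 and 100 µg/mL, 3 for Soyo-san at 100 µg/mL, and 4 and 3 for Okbyeongpung-san at 20 and 500 µg/mL. The cause was not tested.

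With no filter the number was 1 for Menthae Herba at 20 µg/mL, 4 for Saposhnikoviae Radix at 20 µg/mL, 2 for Guibi-tang at 20 µg/mL, 1 for Soyo-san at 500 µg/mL and 5 for the interaction among 6 extracts. With only the groups compared it was 4, 4 and 2 for Saposhnikoviae Radix at 20, 100 and 500 µg/mL, 1 for Saengmaek-san and 1 for Guibi-tang at 100 µg/mL, 0 for Soyo-san at 100 µg/mL and 0 for Okbyeongpung-san at 20 µg/mL. Soyo-san at 100 µg/mL had 2 with DESeq2 and 2 with RLE scaling. The cause was not tested.

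Leaving out 1 library in turn gave, at 20, 100 and 500 µg/mL against vehicle, 0 to 1, 2 to 6 and 4 to 6 called genes for Menthae Herba, 1 to 2, 0 to 2 and 2 to 3 for Saposhnikoviae Radix, 2 to 2, 1 to 2 and 2 to 3 for Saengmaek-san, 1 to 2, 1 to 2 and 2 to 4 for Guibi-tang, 0 to 1, 0 to 2 and 1 to 3 for Soyo-san, and 1 to 1, 1 to 3 and 0 to 1 for Okbyeongpung-san. For 500 against 20 µg/mL it gave 5 to 6 for Menthae Herba, 1 to 2 for Guibi-tang and the main count for the other 4 extracts. It gave 2 to 3 for the interaction among extracts and 4 to 7 for Menthae Herba against the mean of the others. Vehicle had 3 libraries, and BBC3, the gene of lowest level, had a mean expected count of 267. No limit of detection was computed.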
